A study of Bos taurus with 8 samples.

Results

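The expression of the stress regulator ATF4, of 2 partner regulators and of 7 further genes known as its targets was followed in bovine muscle cells from fresh tissue to passage 8 of serum-free culture. These 10 genes were taken by symbol from the 21880 genes of the deposited matrices, and each symbol matched 1 Ensembl gene. They are the regulators ATF4 (ENSBTAG00000017462), DDIT3 (ENSBTAG00000031544) and TRIB3 (ENSBTAG00000017007), the stress effectors CHAC1 (ENSBTAG00000010371) and SESN2 (ENSBTAG00000002363), the amino acid enzymes ASNS (ENSBTAG00000003222), PHGDH (ENSBTAG00000039719), PSAT1 (ENSBTAG00000013960) and SHMT2 (ENSBTAG00000031500), and the amino acid transporter SLC7A5 (ENSBTAG00000006731).

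Belgian Blue cattle gave the cells, from the semitendinosus muscle of 5 calves (donors 2, 4, 5, 7 and 10) and 5 adult animals (donors 1, 3, 6, 8 and 9). The donors were pooled into 1 injection of cells for each of 5 timepoints, directly after collagenase digestion (muscle), after a short culture on fibronectin (passage 0), and at passages 2, 5 and 8. From passage 2, donors 1, 2 and 9 were represented by unsorted cultures, donors 5, 6 and 10 by sorted satellite cell cultures on laminin-521, and donors 4, 7 and 8 by sorted cultures of fibro-adipogenic progenitors on collagen I, all in serum-free growth medium. Donor 3 was sequenced in muscle alone, so every culture timepoint held 9 donors. The donors are the replicates. Because 1 library held each timepoint, time cannot be told apart from library.

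The cell types follow the deposited labels. Satellite cells (SCs) are the stem cells of skeletal muscle, and fibro-adipogenic progenitors (FAPs) are the precursors of its connective tissue and fat. Endothelium was split into vascular (VECs) and lymphatic (LECs) cells, SMMCs combine smooth muscle with mesenchymal cells, and the blood cells used here are monocytes/macrophages and lymphocytes. Libraries held 2772 to 10405 labelled cells, with a median of 4184 unique molecular identifiers (UMIs) per cell in muscle and of 18340 to 27239.5 in culture, and 129 cell barcodes occurred in more than 1 library. In muscle the defining markers stood where the labels put them. DCN averaged 19369 CPM (counts per 1000000 UMIs) in FAPs, MYF5 793 CPM in SCs, PECAM1 904 CPM in VECs, MYH11 971 CPM in SMMCs, C1QA 6898 CPM in monocytes/macrophages, CD3E 770.2 CPM in lymphocytes and MMRN1 3891 CPM in LECs. RNA of muscle fibres was found outside fibres in the muscle library, with 9 fibre genes together at 1011 to 1676 CPM in FAPs and 431 to 1265 CPM in SCs. At passage 0 they were at no more than 3.04 CPM in either type.

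In culture the marker levels of the labelled types moved. In cells labelled SCs the summed median of 7 SC markers was 1908 CPM in muscle, 177 CPM at passage 0 and 471 CPM at passage 2, and that of 5 FAP markers was 131, 1516 and 6549 CPM. MYF5 averaged 59.6 CPM in SCs at passage 0 and 136 CPM at passage 2, PAX7 was at 3.68 and 3.27 CPM, and CHRDL2 was at 0.03 and 0 CPM. In cells labelled FAPs the FAP markers had medians of 26786, 3990 and 21183 CPM and the SC markers 158, 22.5 and 13.3 CPM at these timepoints. SCs thus kept more SC marker RNA and less FAP marker RNA than FAPs at each of them, by median. In monocytes/macrophages the summed median of their own 5 markers went from 8447 CPM in muscle to 1430 CPM at passage 0, that of the FAP markers from 69.4 to 1325 CPM, and that of 4 neutrophil markers from 61.9 to 3484 CPM. Of the neutrophil markers, S100A8 and S100A9 carried the passage 0 level, and CSF3R and CXCR2 were at 0. In SMMCs the FAP markers went from 372 to 1173 CPM and their own from 11231 to 3459 CPM, and in VECs from 248 to 437 CPM and from 2483 to 1951 CPM. The part of these marker levels in the changes of the 10 genes in SCs, monocytes/macrophages, SMMCs and VECs, and in the comparisons of SCs with FAPs, was not tested.

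ATF4 is the main transcription factor of the integrated stress response. Lack of an amino acid, or unfolded protein in the endoplasmic reticulum, activates kinases that phosphorylate the initiation factor eIF2, general translation slows, and translation of ATF4 messenger RNA goes up. ATF4 protein then binds genes for amino acid synthesis and uptake and for tRNA charging, so that its own transcript level need not follow its activity, which was not measured here. Under lasting stress it acts together with DDIT3 (CHOP), a regulator linked to growth arrest and cell death, and TRIB3, a pseudokinase that feeds back on both. In growing cells the same enzymes supply serine, glycine and one-carbon units for nucleotides.

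Levels are given as CPM in the summed UMIs of all cells of 1 type and 1 donor (a pseudobulk of at least 10 cells), as the lowest, the median and the highest donor. Differences are log2 fold changes ± standard error from edgeR's quasi-likelihood test. A gene was called at a Benjamini-Hochberg adjusted p below 0.05, taken over all genes tested in a comparison, with an absolute log2 fold change above 1. Because reads came from 3′ ends, levels of different genes were not compared.

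**Figure D1:**
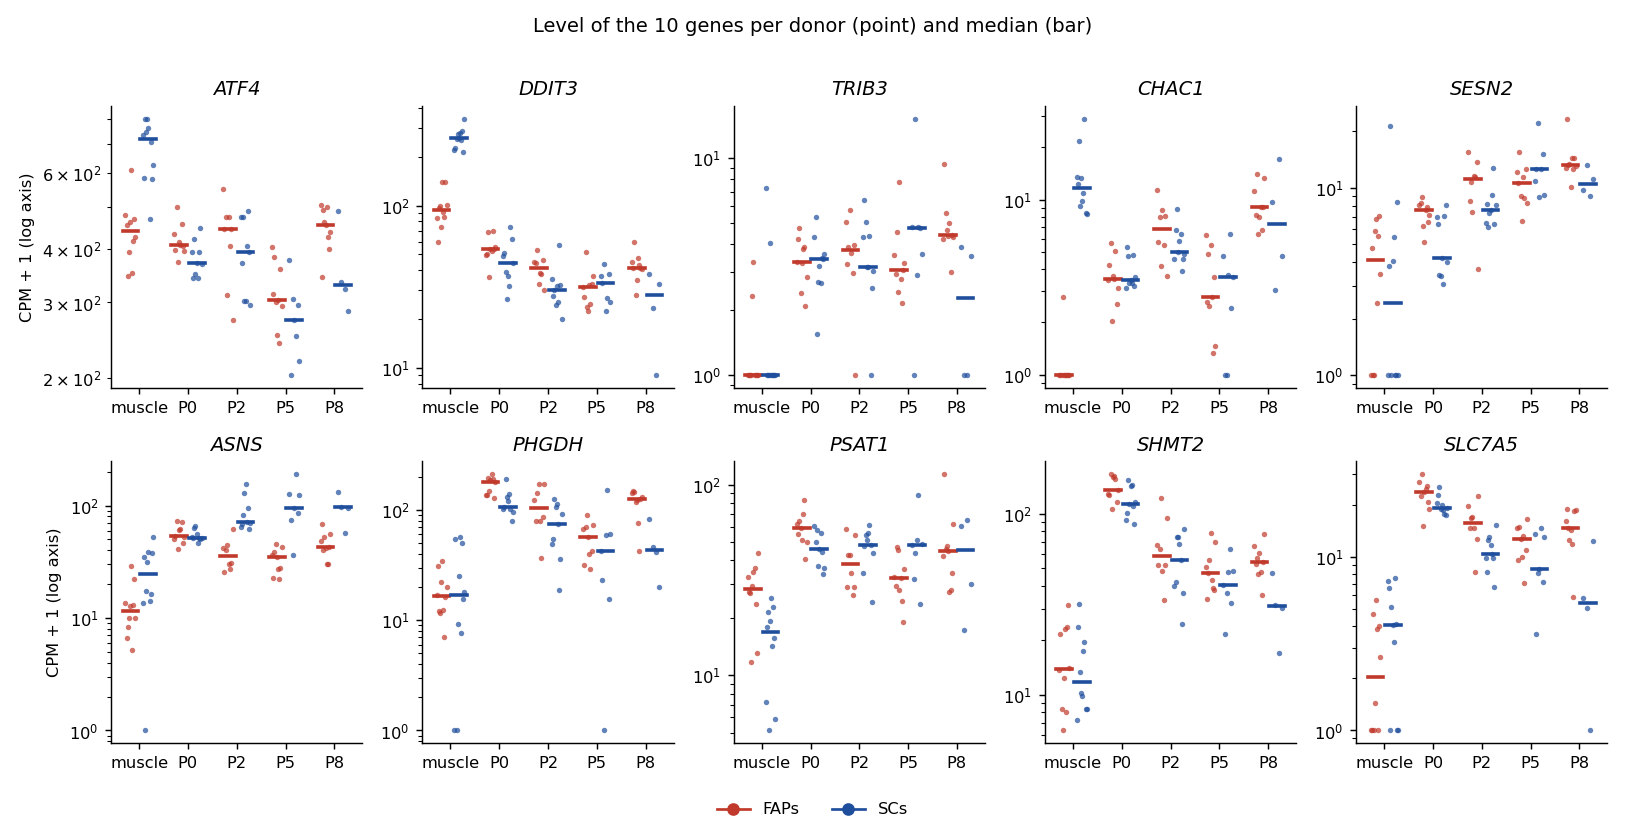
Each point is the level of 1 gene in 1 donor (CPM + 1, log axis) in FAPs (red) or SCs (blue) from muscle to passage 8 (P8), and each bar is the median. The medians of PHGDH, SHMT2 and SLC7A5 were lowest in muscle, that of DDIT3 was highest there, and ASNS had a higher median in SCs than in FAPs from passage 2 on.

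The first comparison was of freshly isolated cells with the same cell types in early culture. In FAPs the amino acid genes ASNS, PHGDH, PSAT1, SHMT2 and SLC7A5 rose, whereas ATF4 itself had a log2 fold change of 0.04. Of the 8 members tested there, 5 were called higher and 0 lower, where 21.0% of all genes tested were called higher and 22.4% lower. In SCs 3 of 6 members tested were called higher (PHGDH, PSAT1 and SHMT2) and 1 lower (DDIT3), with 16.3% and 18.0% of all genes called in these directions. In VECs 4 of 6 were called higher (ASNS, PHGDH, PSAT1 and SHMT2; all genes 15.6%) and DDIT3 lower (all genes 19.5%). In SMMCs 2 of 4 were called higher (PHGDH and SHMT2; all genes 15.2%) and DDIT3 lower (all genes 21.3%). In monocytes/macrophages ATF4 and DDIT3 alone could be tested, and DDIT3 was called lower (all genes 20.5%). The median log2 fold change of the members tested was 1.70 in FAPs, 1.25 in SCs, 1.41 in VECs and 1.24 in SMMCs, against 0.03, 0.02, -0.01 and 0.01 for all genes tested. The members left out had too few UMIs for the test, and a gene with few UMIs in muscle passes only when it is high in culture, so these counts and medians describe the members and do not support a direction of the whole group.

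**Figure D2:**
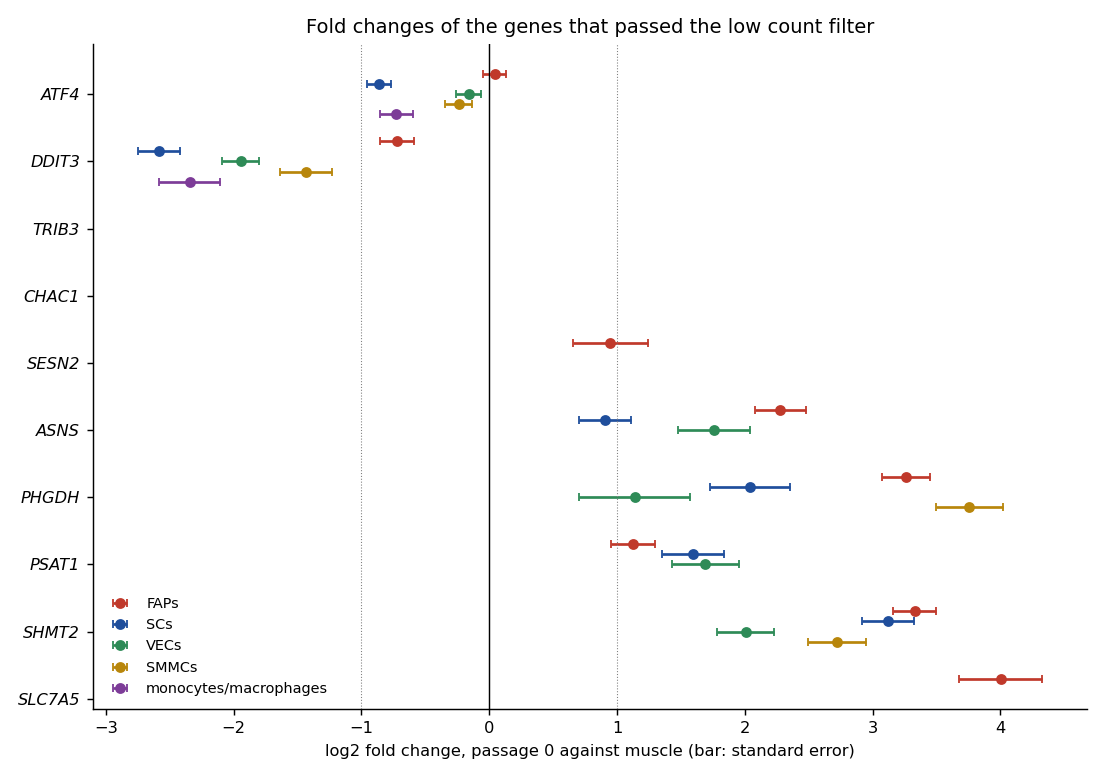
Points are log2 fold changes of passage 0 against muscle and bars are standard errors, for each gene and cell type in which the gene was tested; dotted lines mark the limit of a call. DDIT3 lay below 0 in all 5 types and the amino acid genes lay above 0, while no point is drawn for TRIB3 and CHAC1, which were not tested.

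ATF4 transcripts were lower at passage 0 in SCs and in monocytes/macrophages, by less than the limit of a call. In FAPs the direction was not settled. In FAPs the level was 344, 439 and 610 CPM (lowest, median and highest of 10 donors) in muscle and 372, 406 and 499.9 CPM (9 donors) at passage 0, and these ranges overlapped. The log2 fold change was 0.04 ± 0.09 (adjusted p = 0.665), and 3 of 9 donors were higher in culture. Its sign depended on the processing, with 0.31 without the filter for low counts and -0.33 at equal depth. In SCs it was 468, 720.02 and 801 CPM in muscle and 340.1, 370.1 and 447 CPM at passage 0. All muscle donors lay above all passage 0 donors, and the log2 fold change of -0.86 ± 0.09 (adjusted p = 6.76e-09) stayed within the limit of 1, while it was -1.05 at equal depth. Monocytes/macrophages had a median of 482 CPM in muscle and 315 CPM at passage 0, with a log2 fold change of -0.73 ± 0.13 (adjusted p = 2.12e-05), and were lower in 7 of 7 donors. VECs were at -0.16 ± 0.10 (adjusted p = 0.149) and SMMCs at -0.24 ± 0.10 (adjusted p = 0.0437). The difference of the change between SCs and FAPs was itself tested in a fit over all 4 groups and was -0.70 ± 0.13 (adjusted p = 2.05e-05).

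DDIT3 was lower at passage 0 in every cell type tested, and was called in 4 of these 5. In SCs it was 213, 257.9 and 341 CPM in muscle and 25.6, 43.1 and 72.7 CPM at passage 0, without overlap, and the log2 fold change was -2.58 ± 0.16 (adjusted p = 1.32e-12). In monocytes/macrophages it was 173, 314 and 409 CPM in muscle and 7.28, 68.6 and 92.2 CPM at passage 0 (log2 fold change -2.34 ± 0.24, adjusted p = 4.85e-09). In VECs it was 94.6, 152 and 227 CPM in muscle and 21.6, 37.3 and 45.6 CPM at passage 0 (-1.95 ± 0.15, adjusted p = 2.47e-12). These 3 types showed no overlap between timepoints. SMMCs overlapped, from 114 to 287 CPM in muscle and from 49.1 to 154 CPM at passage 0, with all 7 donors lower in culture (-1.43 ± 0.20, adjusted p = 8.67e-07). FAPs had the lowest median of these 5 types in muscle, with 58.5, 93.4 and 139 CPM, and 35.4, 53.0 and 68.6 CPM at passage 0. Their log2 fold change of -0.72 ± 0.13 (adjusted p = 2.05e-05), with 9 of 9 donors lower, did not reach the limit of 1, and the difference between the change in SCs and in FAPs was -1.66 ± 0.22 (adjusted p = 4.34e-08). At passage 0 the medians of all these types lay between 37.3 and 68.6 CPM.

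Alongside DDIT3, a list of 10 early response genes that are known to be switched on by tissue dissociation (FOS, JUN, EGR1 and others) was lower in culture. In muscle their summed level had a median of 6251 CPM for FAPs, 17148 CPM for SCs, 19087 CPM for VECs, 18211 CPM for SMMCs and 14053 CPM for monocytes/macrophages, and at passage 0 these medians lay between 644 and 823 CPM. All 10 were called lower in FAPs, SCs, VECs and monocytes/macrophages (all genes 22.4%, 18.0%, 19.5% and 20.5%), and 9 of 10 in SMMCs (all genes 21.3%). The DDIT3 differences beside these levels were -0.72 in FAPs, -2.58 in SCs, -1.95 in VECs, -1.43 in SMMCs and -2.34 in monocytes/macrophages. The part of dissociation in the DDIT3 and ATF4 values was not tested.

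**Figure D3:**
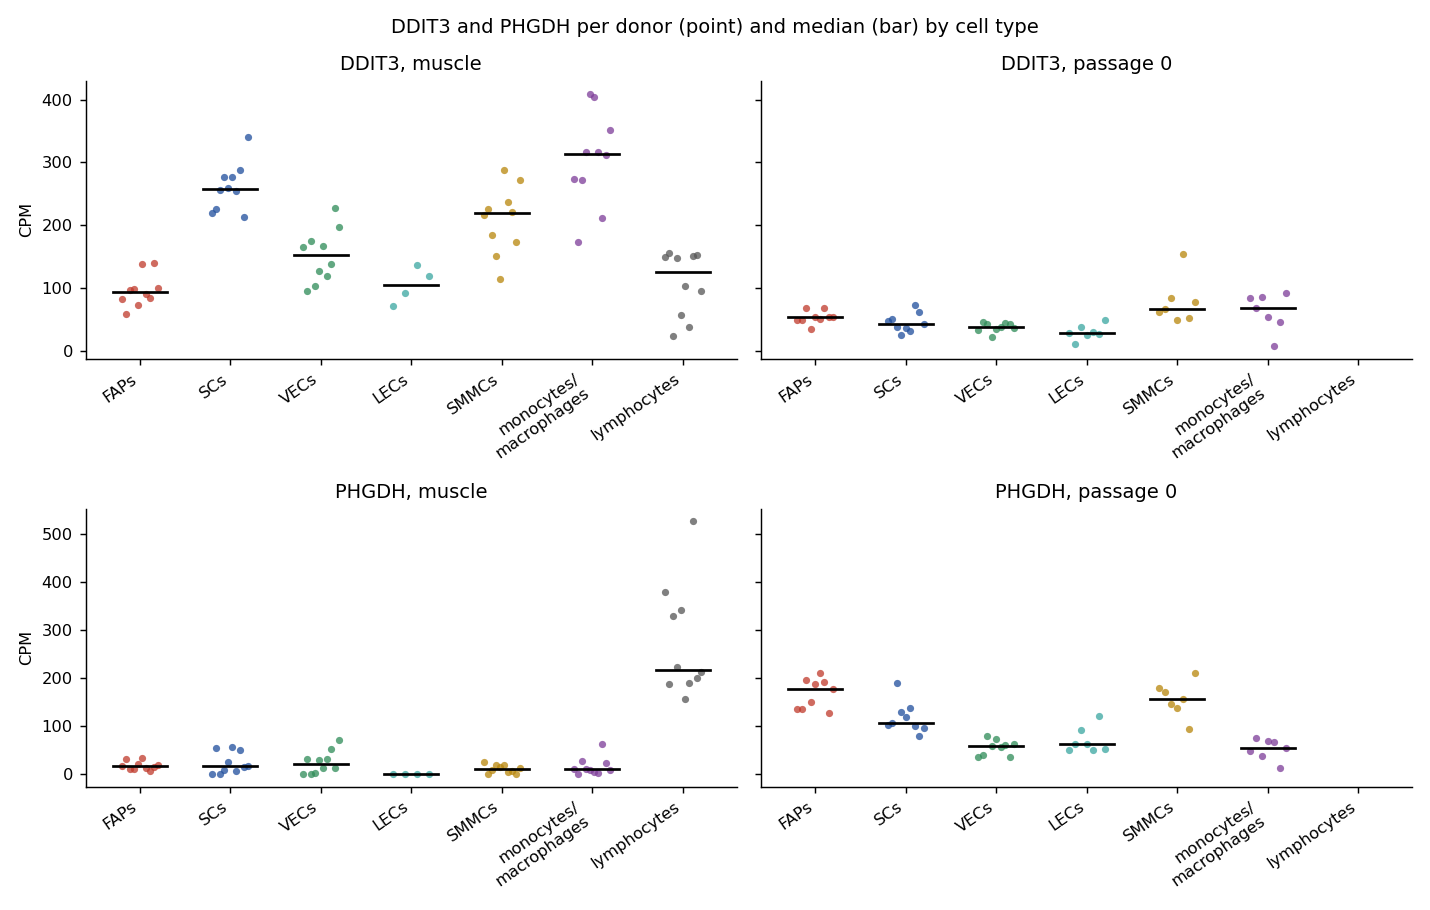
Each point is the level of DDIT3 (top) or PHGDH (bottom) in 1 donor in CPM, by cell type, in muscle (left) and at passage 0 (right); bars are medians, and lymphocytes had no pseudobulk at passage 0. Medians of DDIT3 lay between 93.4 and 314 CPM in muscle and between 27.9 and 68.6 CPM at passage 0. PHGDH in muscle was high in lymphocytes alone among the types drawn.

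TRIB3 was close to the limit of detection in FAPs and SCs of muscle. It had 5 UMIs over all 10 donors in muscle FAPs and 2 in muscle SCs, and medians of 2.33 CPM in FAPs and 2.44 CPM in SCs at passage 0, where all 9 donors had UMIs of it in both types, 319 and 95 in all. The ratio of the summed UMIs of SCs between passage 0 and muscle was 3.07, with an exact 95.0% interval for counting error from 0.827 to 25.7. Muscle lymphocytes had 12 UMIs of TRIB3 among 937681, at 0, 4.71 and 26.6 CPM, and 5 of 10 donors were at 0. TRIB3 did not pass the filter for low counts in any comparison with muscle. Without the filter its log2 fold change at passage 0 was 2.21 ± 0.56 in FAPs (adjusted p = 9.22e-04), 2.49 ± 0.64 in VECs (adjusted p = 0.00124), 2.03 ± 0.81 in SMMCs (adjusted p = 0.0322), 1.85 ± 0.80 in SCs (adjusted p = 0.0527) and 0.30 ± 0.84 in monocytes/macrophages (adjusted p = 0.805).

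CHAC1, which degrades glutathione and is among the most stress-specific targets of ATF4 and DDIT3, differed between the cell types in muscle. SCs carried 34 UMIs, at 7.31, 10.6 and 27.9 CPM, and every one of the 10 donors had CHAC1. FAPs carried 1 UMI among 7723469, and the ratio of SCs to FAPs was 93.7 with an exact 95.0% interval for counting error from 15.7 to 3806. At passage 0 the level was 2.15, 2.49 and 4.35 CPM in SCs and 1.05, 2.52 and 4.65 CPM in FAPs, so that SCs lay below their muscle range in all 9 donors. The summed UMIs of FAPs gave a ratio of passage 0 to muscle of 20.2, with an interval from 3.61 to 802. The gene did not pass the filter for low counts, and without that filter the log2 fold change of SCs was -1.82 ± 0.32 (adjusted p = 5.49e-06) at passage 0 against muscle. VECs went the other way, from 5 UMIs in muscle to 123 at passage 0, with 8 of 9 donors higher in culture and overlapping ranges (2.92 ± 0.55, adjusted p = 8.87e-06 without the filter). Without the filter FAPs were at 4.50 ± 0.80 (adjusted p = 1.07e-05) and the change in SCs minus that in FAPs at -6.14 ± 0.76 (adjusted p = 6.33e-09), both resting on the 1 UMI of muscle FAPs, and monocytes/macrophages were at 0.62 ± 0.88 (adjusted p = 0.683). SMMCs had 0 UMIs of CHAC1 in muscle and 37 at passage 0, which is at least 4.37-fold higher when 3 counts are set for the muscle group.

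SESN2, a leucine sensor that restrains mTORC1, was low in muscle, with 27 UMIs in FAPs and 7 in SCs. In FAPs it was 0, 3.12 and 6.05 CPM in muscle and 4.14, 6.58 and 7.94 CPM at passage 0. These ranges overlapped, 7 of 9 donors were higher in culture, and the log2 fold change of 0.95 ± 0.29 (adjusted p = 0.00497) stayed below 1, while it was 1.22 (adjusted p = 4.31e-04) without the filter for low counts. SESN2 did not pass the filter in the other types. Without it the log2 fold change was 1.92 ± 0.81 in SMMCs (adjusted p = 0.0441, from 2 UMIs in muscle), 0.98 ± 0.60 in SCs (adjusted p = 0.181), -0.02 ± 0.72 in VECs (adjusted p = 0.984) and -1.09 ± 0.65 in monocytes/macrophages (adjusted p = 0.201). In monocytes/macrophages the median was 10.4 CPM in muscle and 0 CPM at passage 0, and 5 of 7 donors were lower in culture.

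ASNS, which makes asparagine from aspartate and glutamine, was higher at passage 0. In FAPs it was 4.25, 10.5 and 27.9 CPM in muscle and 40.3, 52.1 and 71.5 CPM at passage 0, without overlap (log2 fold change 2.28 ± 0.20, adjusted p = 2.07e-10). SCs had 0, 23.5 and 51.2 CPM in muscle and 45.8, 50.9 and 64.8 CPM at passage 0. The ranges of SCs overlapped, 8 of 9 donors were higher at passage 0, and the log2 fold change of 0.91 ± 0.20 (adjusted p = 2.92e-04) was below the limit, while it was 1.23 without the filter. The change in SCs minus that in FAPs was -1.18 ± 0.32 (adjusted p = 0.00271), and had too few UMIs to be tested at equal depth. In VECs the level went from a median of 14.6 to 45.6 CPM without overlap (1.76 ± 0.28, adjusted p = 3.88e-06).

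The serine enzymes PHGDH, PSAT1 and SHMT2 rose in both FAPs and SCs. PHGDH, the first and committed step from glycolysis to serine, was 6.03, 15.5 and 33.7 CPM in muscle FAPs and 128, 177 and 210.2 CPM at passage 0 (3.26 ± 0.19, adjusted p = 1.64e-13). In SCs it was 0, 15.9 and 55.5 CPM in muscle and 78.8, 106 and 189.8 CPM at passage 0 (2.04 ± 0.31, adjusted p = 6.56e-06). Neither type had overlapping ranges, and the change in SCs minus that in FAPs was -1.04 ± 0.41 (adjusted p = 0.042). That last call was lost without the filter for low counts (-1.05, adjusted p = 0.0809), with DESeq2 (-0.99, under the limit) and at equal depth (-0.10, adjusted p = 0.934). SMMCs changed by 3.76 ± 0.26 (adjusted p = 4.36e-12) and VECs by 1.14 ± 0.43 (adjusted p = 0.0247). In VECs 1 of 9 donors was lower in culture, the ranges of 0 to 70.4 CPM and 34.2 to 79.3 CPM overlapped, and the adjusted p was 0.0557 with the donor as a block.

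Across the types of fresh muscle, lymphocytes stood apart in PHGDH. They had 155, 217 and 526.03 CPM over 10 donors, from 253 UMIs. The highest donor of any other type was at 70.4 CPM, in VECs, so that no lymphocyte value was within the range of another type. These other types had medians from 0 to 20.7 CPM in muscle, and LECs, with 4 donors, were at 0 UMIs, which allows up to 11.8 CPM. After thinning each cell to 2000 UMIs, 37.3% ± 15.1 (SD, 10 donors) of lymphocytes had a UMI of PHGDH (60.6% unthinned), against 1.91% to 3.76% in FAPs, SCs, VECs, SMMCs and monocytes/macrophages. For SHMT2 the median of lymphocytes was 0 CPM, with 6 of 10 donors at 0, and for PSAT1 it was 10.9 CPM.

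PSAT1, the aminotransferase that follows PHGDH, was 10.7, 27.3 and 42.7 CPM in muscle FAPs and 39.5, 58.1 and 81.9 CPM at passage 0, with a slight overlap (1.12 ± 0.17, adjusted p = 2.64e-06). In SCs it was 4.13, 15.8 and 24.4 CPM in muscle and 33.0, 44.9 and 59.9 CPM at passage 0, without overlap (1.59 ± 0.24, adjusted p = 1.8e-06). In muscle 9 of 10 donors had less PSAT1 in SCs than in FAPs. SHMT2, which makes glycine and one-carbon units from serine in mitochondria, was 5.35, 12.9 and 30.3 CPM in muscle FAPs and 105, 135 and 165 CPM at passage 0 (3.33 ± 0.17, adjusted p = 6.16e-15). SCs had 6.26, 10.8 and 30.7 CPM in muscle and 87.1, 113 and 153 CPM at passage 0 (3.12 ± 0.20, adjusted p = 8.94e-13). All donors rose in both types without overlap, and the difference between the changes was -0.02 ± 0.33 (adjusted p = 0.982).

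SLC7A5, the light chain of the LAT1 transporter for leucine and other large neutral amino acids, had 11 UMIs in muscle FAPs and 2938 at passage 0. It was 0, 1.04 and 4.65 CPM in muscle and 14.0, 22.8 and 29.0 CPM at passage 0 (4.00 ± 0.33, adjusted p = 4.22e-11). SCs had 0, 3.08 and 6.59 CPM in muscle and 16.5, 18.2 and 24.1 CPM at passage 0. No donor of one timepoint reached the range of the other in either type. The gene was not tested in SCs because of its few muscle UMIs, and without the filter its log2 fold change there was 2.83 ± 0.32 (adjusted p = 7.16e-10).

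In SMMCs and monocytes/macrophages most amino acid genes had too few muscle UMIs to be tested. PSAT1 of SMMCs was 0, 0 and 9.58 CPM in muscle and 31.1, 35.4 and 50.96 CPM at passage 0, without overlap. SLC7A5 of SMMCs was 0, 8.11 and 22.6 CPM in muscle and 15.5, 26.8 and 35.5 CPM at passage 0. In monocytes/macrophages PSAT1 was 0, 1.19 and 19.7 CPM and then 6.86, 39.8 and 57.1 CPM, and PHGDH was 0, 9.18 and 63.2 CPM and then 11.4, 54.3 and 75.4 CPM, with overlapping ranges. Without the filter the log2 fold change of PSAT1 was 3.78 ± 0.43 in SMMCs (adjusted p = 1.29e-15) and 2.68 ± 0.48 in monocytes/macrophages (adjusted p = 2.92e-07), and that of PHGDH in monocytes/macrophages was 2.23 ± 0.37 (adjusted p = 2.96e-08). SLC7A5 in SMMCs was at 1.71 ± 0.37 (adjusted p = 2.97e-05). In monocytes/macrophages SHMT2 was at 0.98 ± 0.27 (adjusted p = 0.00158) and SLC7A5 at 0.89 ± 0.57 (adjusted p = 0.245), and neither was called. ASNS was at 2.67 ± 0.33 in SMMCs (adjusted p = 1.36e-11) and 2.22 ± 0.47 in monocytes/macrophages (adjusted p = 1.97e-05).

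Shares of single cells at equal depth differed in the same directions. After thinning each cell to 2000 UMIs, PHGDH had a UMI in 3.76% ± 2.11 (SD over 10 donors) of muscle FAPs and in 25.6% ± 3.80 (9 donors) of passage 0 FAPs; unthinned, these shares were 8.31% and 78.4%. DDIT3 had a UMI in 36.5% ± 5.84 of muscle SCs and in 8.58% ± 3.86 of passage 0 SCs, and in 53.5% and 42.9% unthinned. Shallower cells were left out, namely 38 of the muscle FAPs, 46 of the muscle SCs and 3 of the passage 0 SCs. No cell type is known to lack these genes, so a share from free RNA could not be set beside them.

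Cell cycle genes rose alongside the amino acid genes. A list of 14 of them (MKI67, TOP2A, MCM2 and others) had 14 called higher in FAPs (all genes 21.0%), 11 in SCs (all genes 16.3%) and 4 of 9 tested in VECs (all genes 15.6%). Its summed median was 151 CPM for muscle FAPs and 1642 CPM at passage 0, and SCs were at 559.9 and 1521 CPM. VECs went from 301 to 592 CPM and SMMCs, with 5 of 5 tested called higher (all genes 15.2%), from 128 to 1323 CPM. A gene with few UMIs in muscle passes the filter only when it is high in culture. These counts therefore describe the genes that passed. The median log2 fold change of the list was 5.24 in FAPs and 1.72 in SCs. A change called lower in SCs than in FAPs was found for 12 of 14, where 7.6% of all genes had one. Of the amino acid genes, ASNS (-1.18, not tested at equal depth) and PHGDH (-1.04, a call lost at equal depth) also had a change called lower in SCs. PSAT1, SLC7A5 and SHMT2 (-0.02 ± 0.33, adjusted p = 0.982) did not. The part of the cell cycle in the amino acid genes was not tested across timepoints. Within 1 library, cells were compared by their deposited cell cycle call, which had been made from cell cycle genes.

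**Figure D4:**
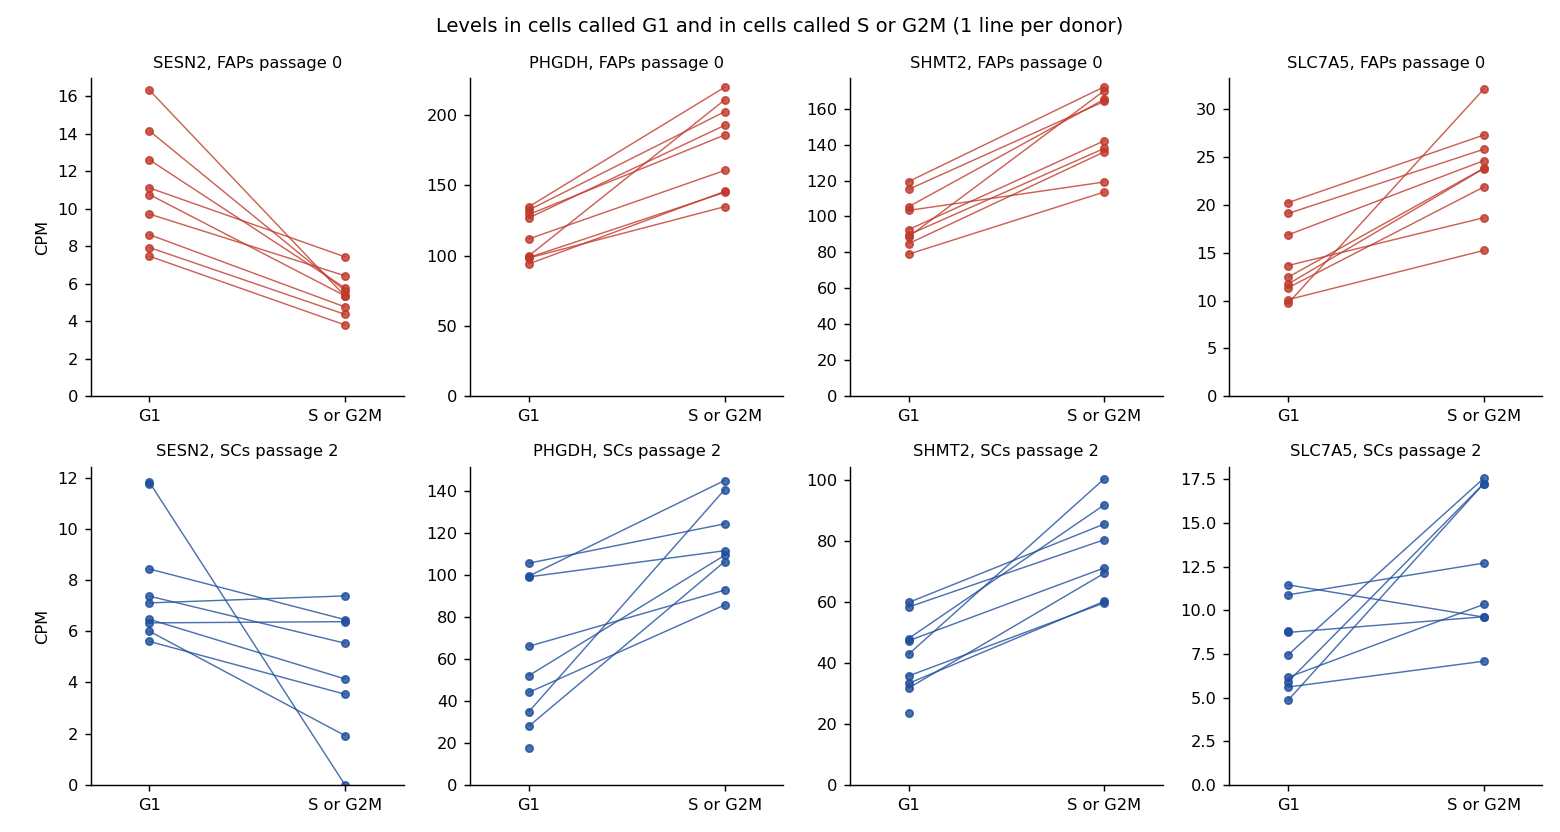
Each line joins the level in CPM of 1 donor in cells called G1 and in cells called S or G2M, for FAPs at passage 0 (top) and SCs at passage 2 (bottom). PHGDH and SHMT2 were higher in S or G2M in every donor that had both, and SESN2 was lower in all 9 donors of FAPs.

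Among passage 0 FAPs, SESN2 was the single member called between phases, and it was lower in cycling cells, where 1.75% of all genes tested were called lower. It was 7.47, 10.8 and 16.3 CPM in G1 and 3.80, 5.35 and 7.43 CPM in S or G2M, without overlap (-1.09 ± 0.15, adjusted p = 4.53e-06, 9 of 9 donors), and at equal depth it was -0.95, under the limit. PHGDH went the other way, from a median of 112 CPM in G1 to 186 CPM in S or G2M (0.56 ± 0.10, adjusted p = 2.41e-04). SHMT2 (0.52 ± 0.08, adjusted p = 3.94e-05) and SLC7A5 (0.68 ± 0.14, adjusted p = 8.44e-04) were also higher in 9 of 9 donors, all under the limit of 1. ATF4 was at -0.01 ± 0.06 (adjusted p = 0.891) and ASNS at 0.11 ± 0.12 (adjusted p = 0.5205). In SCs at passage 2, 0 of 8 members tested were called by edgeR or by DESeq2, against 4.88% of all genes, with 5 members at an unadjusted p under 0.05. PHGDH was 0.80 ± 0.27 (adjusted p = 0.0469), SHMT2 0.80 ± 0.15 (adjusted p = 6.64e-04) and SLC7A5 0.61 ± 0.20 (adjusted p = 0.0373) higher in S or G2M, and SESN2 was -0.54 ± 0.23 (adjusted p = 0.108). ASNS, which was not called, was 176, 186 and 82.3 CPM in G1 cells of SC cultures (donors 5, 6 and 10). In S or G2M it was 93.2, 108 and 62.2 CPM there. It was also lower in S or G2M in donors 1, 2 and 9, and higher in donors 4 and 7.

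FAPs at passage 2 had more CHAC1 and less SHMT2 than at passage 0. These were the members called, with 1 of 10 higher and 1 of 10 lower, where 11.3% and 7.96% of all genes were called. CHAC1, near the detection limit in muscle FAPs, went from 1.05, 2.52 and 4.65 CPM to 2.67, 5.82 and 10.4 CPM, and rose in 8 of 8 donors (1.46 ± 0.25, adjusted p = 5.29e-05). SHMT2 went from 105, 135 and 165 CPM to 32.4, 57.2 and 122 CPM, and fell in 7 of 8 donors (-1.11 ± 0.17, adjusted p = 1.24e-05). Both pairs of ranges overlapped, and at equal depth SHMT2 was at -0.86, under the limit. ASNS (-0.61 ± 0.13), PSAT1 (-0.56 ± 0.16), PHGDH (-0.60 ± 0.21) and SLC7A5 (-0.55 ± 0.16) were lower and SESN2 (0.88 ± 0.16) was higher with adjusted p between 1.04e-04 and 0.019, but under the limit. The median over the 10 members was -0.40, against 0.03 for all genes. The summed cell cycle list was at a median of 513 CPM at passage 2. Sorting and the change of coating fell between these timepoints for 6 of the 9 donors, and in these they cannot be told apart from passage. The 3 unsorted cultures stayed on fibronectin. Their FAPs at passage 2 had CHAC1 at 4.72, 7.11 and 10.4 CPM, above every passage 0 donor. Their SHMT2 was at 50.9, 51.2 and 66.0 CPM, below every passage 0 donor. FAPs of the 2 SC cultures with enough FAPs (19 and 12 cells) had CHAC1 at 3.20 and 2.67 CPM, from very few UMIs. Their SHMT2 was at 122 and 93.4 CPM. The part of sorting and coating was not tested.

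In SCs at passage 2 against passage 0, SHMT2 was the member called lower (1 of 10, where 3.9% of all genes were), and none was called higher. It was 87.1, 113 and 153 CPM at passage 0 and 23.5, 54.8 and 81.9 CPM at passage 2, without overlap (-1.01 ± 0.18, adjusted p = 1.57e-04). SLC7A5 also had no overlap, with 16.5, 18.2 and 24.1 CPM against 5.73, 9.46 and 14.3 CPM, at -0.85 ± 0.13 (adjusted p = 4.49e-05). CHAC1 (0.78 ± 0.19, adjusted p = 0.00261) and SESN2 (0.72 ± 0.24, adjusted p = 0.0186) were higher and DDIT3 (-0.61 ± 0.19, adjusted p = 0.0156, 9 of 9 donors) was lower, under the limit. The median over the 10 members was 0.05, against 0.00 for all genes. The call of SHMT2 was close to the limit of 1. It was lost, at -0.94, when SCs of FAP cultures were left out, at -0.95 with at least 30 cells per pseudobulk, and at -0.78 at equal depth. The summed cell cycle list of SCs had a median of 1521 CPM at passage 0 and 392.1 CPM at passage 2, with 11 of 14 called lower, and the 9 fibre genes 1.45 and 798 CPM. The part of both in these values was not tested.

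ASNS was called higher in SCs than in FAPs at passage 2. In muscle, where it did not pass the filter for this comparison, it was higher in SCs in 8 of 10 donors, with overlapping ranges (0.99 ± 0.31, adjusted p = 0.0125 without the filter, under the limit). At passage 0 the medians were 50.9 CPM in SCs and 52.1 CPM in FAPs (difference -0.06 ± 0.09, adjusted p = 0.630). At passage 2 it was 60.3, 71.0 and 154 CPM in SCs and 24.8, 34.5 and 61.4 CPM in FAPs, higher in SCs in 8 of 8 donors that had both (1.27 ± 0.19, adjusted p = 3.73e-05). It was the 1 member of 10 called higher in SCs, where 6.86% of all genes were. From passage 0 to passage 2 the log2 fold change was 0.75 ± 0.16 in SCs (adjusted p = 8.37e-04) and -0.61 ± 0.13 in FAPs, and the test of the difference between them gave 1.38 ± 0.21 (adjusted p = 3.29e-05). It was again the 1 member of 10 called in this direction, where 3.42% of all genes were. At equal depth the SCs remained higher by 0.95 (adjusted p = 0.00163), under the limit, and the difference of the changes was 0.95 (adjusted p = 0.077). Since the labels of SCs and FAPs were made from these expression values, p-values between the types are not independent of the labels. Of the other members at passage 2, SESN2 (-0.75 ± 0.19, adjusted p = 0.00491, 6 of 8 donors), DDIT3 (-0.58 ± 0.17, adjusted p = 0.0135, 7 of 8), SLC7A5 (-0.54 ± 0.18, adjusted p = 0.0302, 7 of 8) and CHAC1 (-0.60 ± 0.22, adjusted p = 0.0482, 4 of 8) were lower in SCs, under the limit. PHGDH was lower in SCs in 8 of 8 donors, and at -0.75 with the donor as a block. The test without that block, which did not pair the samples of a donor, gave -0.53 ± 0.31 (adjusted p = 0.219).

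ASNS was also read within each kind of culture. At passage 2, SCs had 60.3, 64.0 and 67.4 CPM in the 3 unsorted cultures, 71.0, 81.1 and 94.0 CPM in the 3 FAP cultures, and 68.7, 127 and 154 CPM in the 3 SC cultures. FAPs had 24.8, 29.6 and 41.3 CPM in unsorted cultures and 26.3, 29.6 and 39.4 CPM in FAP cultures, and 43.2 and 61.4 CPM in the 2 SC cultures with enough FAPs (19 and 12 cells, in this order). Within each kind of culture every SC value lay above every FAP value at passage 2. At passage 5, SCs of SC cultures had 93.3, 124 and 189.1 CPM and FAPs of the same donors 33.9, 41.8 and 44.4 CPM. In unsorted cultures of that passage SCs had 73.9, 84.7 and 127 CPM and FAPs 21.9, 27.0 and 35.2 CPM, again without overlap. In FAP cultures the 1 donor with enough SCs (10 cells) was at 35.5 CPM, within the FAP range of 21.3 to 37.4 CPM. At passage 8 SCs of unsorted cultures (56.3 and 130.3 CPM) overlapped FAPs (41.9, 47.6 and 67.4 CPM), while in SC cultures SCs had 95.1 and 95.7 CPM and FAPs 40.8, 52.1 and 55.2 CPM. SCs and FAPs were not tested against each other at passages 5 and 8. At passage 8 the medians were 95.4 CPM in SCs (4 donors, 127 cells in all) and 41.9 CPM in FAPs (9 donors). Muscle fibre genes also separated the types at passage 2, with a summed level of 29.1 to 2425 CPM in SCs and 19.2 to 26.1 CPM in FAPs. In SC cultures of passage 2, ASNS of SCs was higher in cells called G1, as given above. The part of the fibre genes and of the cell cycle in these ASNS values was not tested.

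**Figure D5:**
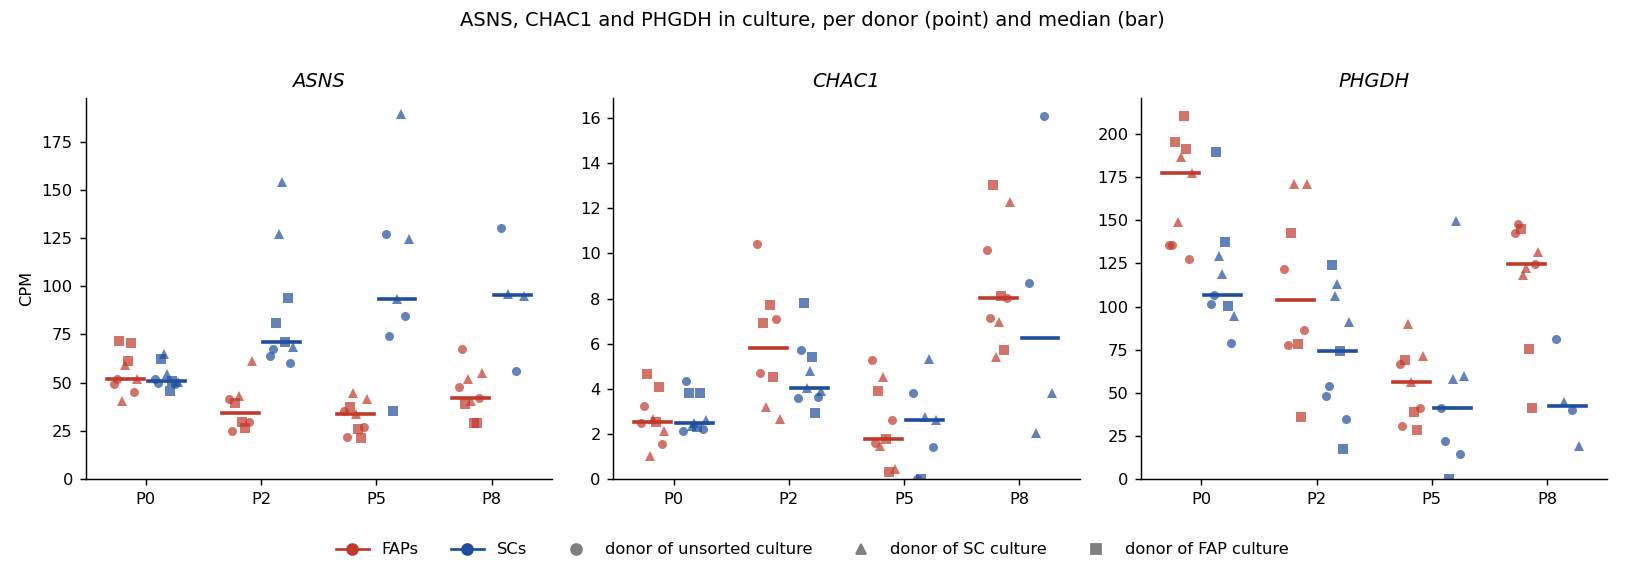
Levels in CPM of ASNS, CHAC1 and PHGDH from passage 0 to passage 8 in FAPs (red) and SCs (blue), with 1 point per donor shaped by its later culture and bars for medians. Most SC values of ASNS lay above FAPs from passage 2 on, and CHAC1 and PHGDH of FAPs were lower at passage 5 than at passages 2 and 8.

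CHAC1 and PHGDH of FAPs were lowest at passage 5 among the passages from 2 to 8, and so were the FAP medians of the other members. At passages 2, 5 and 8 these were 443, 303 and 453 CPM for ATF4. For ASNS, with a small gap, they were 34.5, 33.9 and 41.9 CPM. Between passages 2 and 5 edgeR called 0 of 10 members (all genes 0.656%) and DESeq2 called 1, with 2 members, CHAC1 and PHGDH, at an unadjusted p under 0.05. CHAC1 went to 0.33, 1.78 and 5.29 CPM at passage 5, lower in 8 of 8 donors (-1.38 ± 0.41, adjusted p = 0.0749), and was called by DESeq2 (-1.33, adjusted p = 0.0419) and with the donor as a block (-1.48, adjusted p = 0.00254). Of these 8, donors 5 and 10 had 19 and 12 FAPs at passage 2, with CHAC1 at no more than 3.20 CPM. Their direction rests on very few UMIs of CHAC1. PHGDH went from 35.8, 104 and 171 CPM to 28.4, 56.4 and 89.8 CPM, also in 8 of 8 donors (-0.88 ± 0.26, adjusted p = 0.0762). At passage 8 both were called higher than at passage 5, 2 of 10 members where 0.271% of all genes were called higher. CHAC1 reached 5.40, 8.03 and 13.04 CPM, above every passage 5 donor (1.73 ± 0.38, adjusted p = 0.0118). PHGDH reached 41.2, 125 and 148 CPM (1.04 ± 0.23, adjusted p = 0.0135), and both rose in 9 of 9 donors. At equal depth PHGDH was at 0.88 (adjusted p = 0.0637). ATF4 was higher in 9 of 9 donors too, with 240.3, 303 and 404 CPM against 343, 453 and 504 CPM, at 0.41 ± 0.12 (adjusted p = 0.0538). DDIT3 (0.33 ± 0.17, adjusted p = 0.254) and ASNS (0.42 ± 0.17, adjusted p = 0.136) were likewise higher in 9 of 9 donors. Neither passed this test, which did not pair the samples of a donor. By culture, the median of CHAC1 was 1.78 CPM at passage 5 and 8.09 CPM at passage 8 in FAP cultures, 1.48 and 6.96 CPM in SC cultures, and 2.63 and 8.03 CPM in unsorted cultures, without overlap within any of them. PHGDH overlapped in FAP cultures, at 28.4 to 68.9 and 41.2 to 145 CPM, and did not in SC cultures (56.4 to 89.8 and 118 to 131 CPM) or unsorted cultures (30.6 to 66.5 and 125 to 148 CPM). The summed cell cycle list had a median of 178 CPM at passage 5 and 381 CPM at passage 8. The median over the 10 members was -0.27 from passage 2 to 5 and 0.41 from passage 5 to 8, against 0.01 and 0.00 for all genes. The comparisons of passage 5 with 2 and of passage 8 with 5 share the passage 5 samples.

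In SCs between passages 2 and 5, 0 of 10 members were called, where 0.44% of all genes were, by edgeR and likewise by DESeq2. The unadjusted p was under 0.05 for ATF4 (-0.50 ± 0.15, adjusted p = 0.0872) and SESN2 (0.71 ± 0.18, adjusted p = 0.047), 2 members. ATF4 was lower in 7 of 7 donors, with a median of 391 CPM at passage 2 and 272 CPM at passage 5. SESN2 was higher in 7 of 7, from 5.21, 6.62 and 11.8 CPM to 7.94, 11.5 and 21.3 CPM. At passage 8, 4 donors had enough SCs, and no test was made.

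SCs and FAPs were also set against each other in muscle and at passage 0. In muscle DDIT3 was called higher in SCs, 1 of the 2 members tested, where 6.43% of all genes were (1.39 ± 0.13, adjusted p = 6.65e-10), with no overlap between 213 to 341 CPM in SCs and 58.5 to 139 CPM in FAPs. ATF4 was higher in SCs in 10 of 10 donors (0.55 ± 0.11, adjusted p = 1.4e-04). At passage 0 edgeR and DESeq2 called 0 of 10 members (all genes 10.7%), with 6 at an unadjusted p under 0.05, and PHGDH (-0.51 ± 0.14, adjusted p = 0.00445) and PSAT1 (-0.35 ± 0.13, adjusted p = 0.0302) were lower in SCs in 9 of 9 donors. SESN2 was also lower in SCs by edgeR, at -0.64 (adjusted p = 0.0174), under the limit. In the fit over all 4 groups, 3 of 7 members tested (DDIT3, ASNS and PHGDH) had a change from muscle to passage 0 that was called lower in SCs than in FAPs, where 7.6% of all genes were. The call of PHGDH among them was lost under the 3 alternatives given above, at equal depth with a difference of -0.10 (adjusted p = 0.934). ASNS was not tested at equal depth. The dissociation list had a summed level of 12160 to 24075 CPM in muscle SCs and of 4756 to 11962 CPM in muscle FAPs, and its part in the difference of DDIT3 was not tested.

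The wider pathway was read from lists of 70 further genes. At passage 0 against muscle, 23 of 61 tested in FAPs were called higher and 13 lower, 14 and 9 of 48 in SCs, 18 and 9 of 48 in VECs, 13 and 7 of 37 in SMMCs, and 9 and 9 of 32 in monocytes/macrophages. Of all genes, 21.0% were called higher and 22.4% lower in FAPs, 16.3% and 18.0% in SCs, 15.6% and 19.5% in VECs, 15.2% and 21.3% in SMMCs, and 14.1% and 20.5% in monocytes/macrophages, so that the counts called lower in FAPs, SCs, VECs and SMMCs were near the shares over all genes. The aminoacyl-tRNA synthetases, which charge tRNAs with amino acids, had calls in a single direction. Of 12 measured, 9 were called higher in FAPs, 6 in SCs, 4 in VECs, and 5 of 11 tested in SMMCs, and 1 of 7 in monocytes/macrophages, and none was called lower in these 5 types. The count in monocytes/macrophages was near the 14.1% of all genes. Among other enzymes of serine, glycine, one-carbon and proline metabolism, 12 in all, FAPs had 4 of 9 tested called higher, SCs 3 of 4 and VECs both of the 2 tested. The genes not tested had too few UMIs, and a gene low in muscle passed the filter only when high in culture, so these counts are a description of the genes that passed. PSPH, the phosphatase that completes serine synthesis after PSAT1, was 3.29 higher on the log2 scale in FAPs, 2.47 in SCs, 4.14 in VECs and 3.99 in SMMCs. The median log2 fold change of the synthetases was 1.203 in FAPs, 1.09 in SCs, 0.80 in VECs, 0.96 in SMMCs and 0.31 in monocytes/macrophages, beside medians of all genes from -0.05 to 0.03.

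Regulators had calls in both directions. Of the kinases, phosphatase subunits and other regulators, 6 of 10 were called lower and 1 higher in FAPs, and 3 and 1 of 8 in SCs, beside the shares over all genes given above. Of the other stress targets, 4 were called higher and 3 lower of 9 in FAPs, 2 and 3 of 7 in SCs, 4 and 3 of 7 in VECs, 0 and 3 of 5 in SMMCs, and 0 and 5 of 6 in monocytes/macrophages. PPP1R15A, the subunit that directs dephosphorylation of eIF2α, fell by 3.64 in FAPs, 3.71 in SCs and 2.91 in VECs, on the log2 scale. ATF3, an immediate stress regulator, was -5.35 in SCs, -4.75 in SMMCs and -2.80 in VECs, and TXNIP, which restrains glucose uptake, was -6.58 in FAPs, -3.78 in SCs and -6.11 in VECs. The part of dissociation in the PPP1R15A and ATF3 values was not tested. The other rises among the 3 largest of a cell type included SLC6A9, a glycine transporter (5.22), and GDF15, a secreted stress signal (3.40), in FAPs, VLDLR, a lipoprotein receptor (4.55), and PYCR1, a proline enzyme (3.92), in VECs, SLC1A5, a glutamine transporter (3.18), in SMMCs, and NUPR1, a stress-induced chromatin protein, in SCs (2.97) and monocytes/macrophages (2.27). Of the endoplasmic reticulum folding genes, known mainly as targets of ATF6 and XBP1, 3 of 14 rose and 2 fell in FAPs, 1 of 12 rose and 3 fell in SCs, and 7 of 11 rose and 1 fell in monocytes/macrophages, where MANF was 1.82 higher. The count of rises in FAPs was near the 21.0% of all genes, and the count of 7 in monocytes/macrophages stands beside 14.1%.

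Later passages were compared for the same 70 genes. At passage 2 against passage 0, 6 of 67 rose and 5 fell in FAPs, near the 11.3% and 7.96% of all genes, led by ALDH1L2 (2.24) and NUPR1 (1.76) upward and HMOX1 (-1.34) and GDF15 (-1.23) downward. In SCs ALDH1L2 (1.10) rose and NIBAN1 (-1.77) and HMOX1 (-1.43) fell, of 63, where 6.15% of all genes rose and 3.9% fell. From passage 2 to 5, 0 of 66 were called in FAPs and 0 of 61 in SCs, where 0.656% and 0.44% of all genes were. At passage 8 against passage 5, PSPH (1.09) and SLC38A1, a glutamine transporter (1.03), were called higher in FAPs, of 64.

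Across 114 pseudobulks of at least 30 cells, which share 5 libraries and 10 donors, Pearson's r of log2(CPM + 1) between members was 0.77 between SHMT2 and SLC7A5, 0.74 between PHGDH and SHMT2, 0.71 between ASNS and PSAT1, and 0.71 between ATF4 and DDIT3. DDIT3 had a negative r to the enzymes, of -0.69 to PSAT1, -0.64 to PHGDH and -0.59 to ASNS. The pseudobulks pool muscle with culture, so every r here also holds the differences between muscle and culture. No r was taken within culture alone. ATF4 also had a negative r to these genes, of -0.45 to PSAT1, -0.43 to ASNS, -0.35 to SHMT2, -0.29 to SLC7A5 and -0.28 to PHGDH. Among 12394 genes compared, those most like DDIT3 were MCL1 (0.91), JUN (0.90) and PCF11 (0.90). Those most like PHGDH were CDCA2, SPC24 and CENPW (each 0.79), and those most like SHMT2 were SUB1 (0.86), EIF5A (0.86) and PGAM1 (0.85). PGAM1 (0.81) and PGK1 (0.78), both enzymes of glycolysis, and ACAT2 (0.78) were most like SLC7A5. TXNL4A (0.79), DBI (0.77) and EPRS1 (0.77) were most like PSAT1, and TRIB3 was most like PSPH (0.66). ATF4 was most like SELENOK (0.74), ETS2 (0.73) and MAFF (0.715), ASNS most like ATP5F1D (0.80) among genes with a symbol, and CHAC1 most like KIF5B (0.68).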

How the data were processed

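Single-cell 3′ expression libraries of pooled bovine muscle cells were analysed from the deposited UMI count matrices. The authors aligned the reads to ARS-UCD1.2 with Ensembl annotation and counted UMIs with Cell Ranger 6.0.1, the version also given in the submitters' processing notes, merged the sequencing runs of a timepoint, assigned each cell to a donor from genotypes with demuxlet, and deposited cell type and cell cycle labels. Cells with a donor, which are singlets by genotype, and a deposited cell type label were used (36129 cells) without a further doublet caller. The labels of the passage 0 samples name SCs, FAPs and unsorted cells, whereas the protocol describes unsorted cells. The other 10 columns of the combined cell table, the combined table of normalized values and the cell tables of single timepoints were not used.

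UMIs were summed per timepoint, cell type and donor into 159 pseudobulks of at least 10 cells. Genes were kept by edgeR's filterByExpr within each comparison, and groups were compared with TMM scaling and the quasi-likelihood test of edgeR 4.0.16 (R 4.3.3) over all genes kept, with Benjamini-Hochberg adjustment. Cells were thinned with Python 3.11.15. Total depth was 20977722 to 252316585 UMIs per timepoint, and intervals and floors (3 counts) cover counting error only. The members, the gene lists and the tests were chosen with earlier results of these data known. The members are named throughout, and of the other pathway genes the 3 with the largest log2 fold change in each direction among those called. TTN, CEBPG and BBC3 were not analysed here. Promoter and protein sequences were not used here. The tests were checked on simulated data.

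Alternatives were DESeq2 1.42.0, library sizes without TMM, no filter on low counts, at least 30 cells, cells thinned to equal depth, adjusted p without the fold change limit, and the donor as a block. Donors pair the samples because they are the same animals. The median correlation of a donor's deviations from the group means was 0.07 for FAPs and 0.02 for SCs between muscle and passage 0, 0.18 for SCs between passages 0 and 2, and 0.55 for FAPs between passages 5 and 8. The likeness of pattern of SESN2 is not reported here.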

Additional observations from a re-analysis of the deposited data

Results flagged for a closer look

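Single donors stood far from the other donors of their group in 18 cases over 168 groups of 4 to 10 donors. Each gap was set against Dixon's 95% critical value, which chance passes in about 1 of 20 groups of normally distributed values. Many of these groups hold low counts or donors at 0, and the rate for such values was not tested. In muscle these were ATF4 in FAPs of donor 6 (610.2 CPM), SESN2 in SCs of donor 3 (20.47 CPM), SHMT2 in SMMCs of donor 3 (46.15 CPM), and in monocytes/macrophages SESN2 (42.14 CPM) and PHGDH (63.21 CPM) of donor 8 and SHMT2 of donor 3 (0 CPM). At passage 0 they were CHAC1 in LECs of donor 6 (37.18 CPM) and DDIT3 in SMMCs of donor 8 (153.7 CPM). At passage 2, SCs of donor 8 stood high in DDIT3 (55.83 CPM) and SESN2 (11.75 CPM). At passage 5 they were DDIT3 in FAPs of donor 4 (50.91 CPM), TRIB3 in FAPs of donor 6 (6.773 CPM), TRIB3 in SCs of donor 4 (14.18 CPM, from 10 cells), and PSAT1 (87.08 CPM) and PHGDH (149.6 CPM) in SCs of donor 6. At passage 8, FAPs of donor 2 stood high in TRIB3 (8.385 CPM), SESN2 (22.36 CPM) and PSAT1 (112.4 CPM). Several of the flagged values rest on very few UMIs. All donors together held 7 UMIs of SESN2 in muscle SCs and 8 of CHAC1 in passage 0 LECs. Donor 8 had 15 monocytes/macrophages in muscle and donor 6 had 10 LECs at passage 0.

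The change between timepoints differed between SCs and FAPs for 5 results, by edgeR's quasi-likelihood test of the difference itself. From muscle to passage 0 the change in SCs was below that in FAPs by -0.70 for ATF4, -1.66 for DDIT3, -1.18 for ASNS and -1.04 for PHGDH, on the log2 scale. ASNS was not tested at equal depth for this difference. The PHGDH call was lost at equal depth (-0.10, adjusted p = 0.934), without the filter on low counts (-1.05, adjusted p = 0.0809) and with DESeq2 (-0.99, under the limit). From passage 0 to passage 2 it was above that in FAPs by 1.38 for ASNS, and by 0.95 (adjusted p = 0.077) at equal depth, where that call was lost.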

How the results depend on the processing

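No called member changed direction under any alternative that was run, while ATF4 in FAPs at passage 0, which was not called, changed sign (0.31 without the filter, -0.33 at equal depth), and scaling by library sizes alone moved no call. Counts of members called depended on the filter and on depth. Without the filter on low counts, 8 members were called between passage 0 and muscle in FAPs, 7 in SCs, 8 in VECs, 9 in SMMCs and 4 in monocytes/macrophages, and 3 between SCs and FAPs of muscle. All 10 were then tested, and SESN2 in FAPs (1.22) and ASNS in SCs (1.23), tested with the filter too, passed the limit of 1. Of all genes, that setting called 40.5% in FAPs, 33.2% in SCs, 33.1% in VECs, 29.3% in SMMCs, 24.3% in monocytes/macrophages and 19.3% between SCs and FAPs of muscle, in either direction. That setting moved the median log2 fold change of all genes to 0.18 in FAPs, 0.14 in SCs and -0.20 in monocytes/macrophages, and library sizes alone moved it to 0.11 between SCs and FAPs at passage 2. Thinning to the depth of the smallest pseudobulk left fewer members to test. It gave 2 calls in SCs (ATF4 and DDIT3, both lower, with no other member tested), 2 in VECs (DDIT3 lower and PHGDH higher) and 1 in SMMCs (DDIT3 lower) between passage 0 and muscle, 1 call for the difference of these changes between SCs and FAPs, and 0 calls for FAPs and SCs between passages 0 and 2, FAPs between passages 5 and 8, SCs against FAPs at passage 2, the difference between them from passage 0 to 2, and FAPs by cell cycle. Of all genes, thinning called 33.5%, 36.2% and 37.6% in SCs, VECs and SMMCs between passage 0 and muscle, and 19.0% for that difference, in either direction. For the comparisons with 0 calls these shares were 12.3%, 8.67%, 0.166%, 6.89%, 1.64% and 4.15%, in the order given. With the donor as a block, 5 members were called in SMMCs at passage 0 against muscle (all genes 33.9%) and 1 in FAPs at passage 5 against 2 (all genes 3.75%), and no other count of calls moved by over 1.5 times. DESeq2 gave 1 call in that last comparison (all genes 1.09%). At least 30 cells per pseudobulk gave 5 calls in SMMCs (all genes 38.9%) and 0 in SCs between passages 0 and 2 (all genes 10.1%). Leaving out each type from cultures grown for the other one, an alternative chosen after seeing the data, also gave 0 calls there (all genes 8.73%). By adjusted p alone, 2 members were called in monocytes/macrophages at passage 0 against muscle, 7 in FAPs and 6 in SCs between passages 0 and 2, 1 in SCs between passages 2 and 5, 2, 3 and 5 between SCs and FAPs of muscle, passage 0 and passage 2, and 4 in FAPs and 3 in SCs by cell cycle. The shares of all genes at adjusted p alone were 65.5%, 68.0% and 45.6%, 2.32%, 50.4%, 48.3% and 30.6%, and 35.9% and 19.6%, in this order. Every comparison had more than 5 donors per group, so single donors were not left out. Depth limits TRIB3, CHAC1, SESN2 and SLC7A5 in muscle, each with at most 34 UMIs in FAPs or SCs.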

Other observations

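Cells with a UMI of 1 member had a UMI of another member more often than cells without it in most pairs, at a fixed depth of 10000 UMIs per cell. Of the 90 ordered pairs, the mean share over donors had this direction in 80 pairs in FAPs and 59 in SCs at passage 0. It did so in 65 and 70 at passage 2, in 82 and 77 at passage 5, and in 70 in FAPs at passage 8. Every donor had this direction in 14 pairs in FAPs and 8 in SCs at passage 0, in 7 and 6 at passage 2, in 13 and 16 at passage 5, and in 6 in FAPs at passage 8. CHAC1 had a UMI in 4.70% ± 1.95 (SD, 9 donors) of passage 0 FAPs with DDIT3 and in 1.69% ± 0.85 of those without, in 9 of 9 donors. ASNS had a UMI in 47.2% ± 7.77 of passage 0 FAPs with PSAT1 and in 37.5% ± 5.20 of those without. PSAT1 had a UMI in 41.2% ± 8.67 of passage 2 SCs with PHGDH and in 24.0% ± 8.72 of those without, in 8 of 8 donors. Within a donor both orders of a pair have the same direction, so these counts hold each pair of genes in both orders. No test was made over pairs, since the pairs share cells and genes. Pairs of other genes were not counted, so these counts cannot be read as particular to the members.

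In LECs, which were not tested, DDIT3 had a median of 105 CPM over 4 donors in muscle and 27.9 CPM over 7 donors at passage 0. PHGDH of LECs was at 0 of 254421 UMIs in muscle and at 50.2, 62.0 and 120.2 CPM (lowest, median and highest donor) at passage 0. In lymphocytes of muscle DDIT3 was 23.5, 126 and 156 CPM and ATF4 481, 586 and 717 CPM over 10 donors.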
